A study of Mus musculus with 50 samples.

Results

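Tiparp and 4 other genes of the aryl hydrocarbon receptor pathway were followed through hippocampal microglia of stressed and control mice. The 5 genes are Ahr, Arnt, Ahrr, Tiparp and Cyp1b1, taken by their symbols from the 53700 genes of the count files. They were chosen by the Tiparp values of PBS mice: Tiparp had separated early-life stress (ELS) from control (CTR) mice injected with PBS in an earlier look at these data, so the values of that comparison are given as a description with no test. The filter on low counts, at least 1 CPM (counts scaled to the size of the library) in more than 2 mice, was passed by 4 of the 5 genes and by 16696 of all genes. Ahr did not pass it.

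The samples were microglia sorted as CD45int CD11b+ cells from the hippocampus of 50 male C57BL/6J mice, with 1 poly-A library per mouse. ELS mice had been raised with limited nesting and bedding material from postnatal day (P) 2 to P9, and CTR mice had not. At P9 there were 12 P9-CTR and 13 P9-ELS mice, with no injection. At P200, adults were killed a few hours after an intraperitoneal injection of PBS or of LPS (1 mg/kg) from bacteria, which sets off an innate immune response, which gave 7 CTR-PBS, 6 ELS-PBS, 7 CTR-LPS and 5 ELS-LPS mice. The treatment before sorting differed by age, since myelin was removed with Percoll in adults and not at P9. Each mouse has a nest number and a number within the nest in its label, and is named by both.

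The aryl hydrocarbon receptor, encoded by Ahr, is a transcription factor that waits in the cytosol with chaperones until it binds a ligand, such as a dioxin-like pollutant or a metabolite of tryptophan. It then enters the nucleus, pairs with ARNT and binds DNA at sites with the core GCGTG. Among the genes it switches on are Ahrr, whose product competes with the receptor for ARNT, Tiparp, whose product attaches ADP-ribose to the receptor and lowers its activity, and Cyp1b1, a cytochrome P450 enzyme that oxidises foreign compounds and steroids. In the brain the receptor is known for limiting inflammatory signalling in microglia and astrocytes.

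The 3 target genes carried that core directly upstream of their annotated start, and the receptor and its partner did not. The 250 bases before the start of the canonical GENCODE transcript are shown 5′ to 3′ on the strand of the gene, from genome build GRCm39, to show where the core lies in each target. Capitals mark GCGTG or, on the other strand, CACGC. The Tiparp window is chr3:65435070-65435319 (plus strand), the Ahrr window is chr13:74440463-74440712 (minus strand), and the Cyp1b1 window is chr17:80022533-80022782 (minus strand).
Tiparp: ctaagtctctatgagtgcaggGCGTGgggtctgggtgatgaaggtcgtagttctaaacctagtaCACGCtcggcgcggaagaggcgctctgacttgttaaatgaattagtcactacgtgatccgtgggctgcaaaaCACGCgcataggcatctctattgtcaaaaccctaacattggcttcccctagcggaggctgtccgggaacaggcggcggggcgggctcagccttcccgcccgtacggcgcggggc
Ahrr: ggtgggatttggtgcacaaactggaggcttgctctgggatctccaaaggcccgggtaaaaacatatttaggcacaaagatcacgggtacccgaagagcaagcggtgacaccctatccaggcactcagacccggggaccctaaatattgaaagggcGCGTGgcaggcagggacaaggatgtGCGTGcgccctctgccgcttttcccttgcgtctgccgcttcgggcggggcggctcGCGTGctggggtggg
Cyp1b1: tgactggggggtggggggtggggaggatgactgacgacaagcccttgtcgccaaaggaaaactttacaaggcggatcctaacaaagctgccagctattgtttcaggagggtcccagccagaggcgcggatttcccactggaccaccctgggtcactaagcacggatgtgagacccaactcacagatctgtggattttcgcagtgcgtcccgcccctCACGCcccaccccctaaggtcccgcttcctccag
The core occurred 3 times before Tiparp, 3 times before Ahrr and 1 time before Cyp1b1, counted on both strands, and 0 times before Ahr and Arnt. Of 21770 windows of the same length before protein-coding genes, 31.2% held at least 1 core and 2.86% held 3 or more. The count depends on the start that is used: in the 250 bases before the RefSeq starts (GRCm38.p6), the core occurred 1 time for Tiparp, 3 times for Ahrr, 1 time for Cyp1b1 and 1 time for Arnt. These matches describe the sequence and say nothing of binding in these cells.

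Libraries held 5152838 to 42231258 counts, with a median of 19960409. Of the 50 libraries, 3 had a count for fewer than 16000 genes. These were P9-ELS mice 2 and 3 of nest 19 (15731 and 12482 genes) and CTR-PBS mouse 1 of nest 1 (12854 genes), and some values are also given without them. Without them the P9-ELS means went from 17.9 to 16.5 CPM for Tiparp, 1.17 to 1.35 for Ahrr and 0.330 to 0.390 for Cyp1b1. The CTR-PBS mean of Tiparp went from 15.3 to 14.5 CPM. The 7 markers of microglia, among them P2ry12, Tmem119 and Csf1r, summed to between 18350 and 47530 CPM per mouse. The 7 markers of monocytes and neutrophils summed to at most 11.0 CPM in any mouse. In bulk RNA, fewer cells that express a gene and less RNA of it per cell cannot be told apart.

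Ahr (chr12:35547973-35585057, minus strand) was read in adult microglia after LPS and in no mouse after PBS. Its count was 0 in all 13 PBS mice, against 10 of 12 LPS mice with a count. The CTR-LPS mice had 0, 0.733, 0.143, 0.619, 0.244, 0 and 0.510 CPM, and the ELS-LPS mice had 0.221, 0.0585, 0.495, 1.04 and 0.795 CPM. The 2 LPS mice without a count were both CTR mice, so the LPS and PBS mice overlapped in CTR and did not in ELS, where 5.65% of the genes tested separated in this way. Summed over mice, 95 counts after LPS stood against 0 after PBS, which with a floor of 3 counts over the PBS mice is at least 42.7-fold higher after LPS. The number of mice with a count differed between LPS and PBS (two-sided Fisher's exact test, p = 2.02e-05, and p = 6.73e-05 without the library with few genes). Without the filter, edgeR's quasi-likelihood test gave Ahr an adjusted p of 3.99e-05 for LPS against PBS averaged over CTR and ELS, where 6.37% of 36192 genes were called higher after LPS. Of the 32965 genes with a count in an adult mouse, 12 (0.0364%) had no count in any PBS mouse and a count in at least 10 LPS mice. The level remained low, with at most 28 counts in an LPS mouse.

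Markers of other myeloid cells were low in LPS and PBS mice. The 6 markers of border-associated macrophages summed to between 1.80 and 11.8 CPM in LPS mice and to between 2.84 and 10.6 CPM in PBS mice, and Lyve1 was at 0 in every LPS mouse. The 7 markers of monocytes and neutrophils summed to between 0.878 and 9.66 CPM after LPS and to between 0.712 and 11.0 CPM after PBS. Most of the latter sum was Ccr2, while the neutrophil gene S100a9 was at 0 in all PBS mice and had a count in 1 CTR-LPS and 2 ELS-LPS mice (means 0.109 and 0.442 CPM, near those of Ahr). Reads of an antisense transcript that shares exon positions with Ahr, Gm48236, reached at most 2 counts in a mouse. The part of other cells and of antisense reads in the Ahr counts was not tested.

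ELS and CTR mice did not differ in Ahr by the test after LPS or at P9. The 5 ELS-LPS mice had a mean of 0.523 ± 0.404 CPM (SD) and the 7 CTR-LPS mice had 0.321 ± 0.300 CPM (log2 fold change 0.69 ± 1.31 SE, quasi-likelihood test without the filter, adjusted p = 1). At P9, 2 of 12 CTR mice and 3 of 13 ELS mice had a count. Of the 43 counts in the P9-ELS group, 37 came from mouse 3 of nest 53 (1.09 CPM), and the difference did not pass the test (adjusted p = 0.125 from the same test). Averaged over conditions, Ahr was lower in P200 PBS mice than at P9 in that fit (adjusted p = 0.0165, and 0.0456 without that mouse). This fit called 11929 of 36192 genes in that comparison, and Ahr had a count in 5 of 25 P9 mice and 0 of 13 PBS mice. In ELS mice alone, where 8217 genes were called, the call was lost without mouse 3 of nest 53 (adjusted p = 0.0174 with it and 0.0845 without).

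Arnt (chr3:95341365-95404551, plus strand), the partner without which the receptor cannot bind DNA, was expressed in every mouse of every group. The P9-CTR mice lay between 31.9 and 68.8 CPM (median 49.2), and the P9-ELS mice between 14.0 and 77.7 CPM (median 57.0), with 39.3 CPM as the lowest without the libraries with few genes. The CTR-PBS mice lay between 38.8 and 87.6 CPM (median 67.5), and the ELS-PBS mice between 44.5 and 90.3 CPM (median 80.0). All 4 of these groups overlapped. The CTR-LPS mice lay between 68.0 and 126 CPM (median 80.4), and the ELS-LPS mice had 92.9, 79.4, 32.6, 110 and 77.9 CPM. The ELS-LPS range enclosed most of the range of the other adults.

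Arnt was called when ages were compared. Averaged over CTR and ELS, it was higher in P200 PBS mice (68.4 ± 16.5 CPM, n = 13) than at P9 (51.9 ± 14.0 CPM, n = 25), with a log2 fold change of 0.41 ± 0.15 (SE, adjusted p = 0.0153). This comparison called 56.2% of all genes tested. Neither condition alone passed the test (adjusted p = 0.122 in CTR and 0.0947 in ELS mice). LPS against PBS gave 0.27 ± 0.17 (adjusted p = 0.278), ELS against CTR gave 0.13 ± 0.17 at P9 (adjusted p = 1) and -0.15 ± 0.25 after LPS (adjusted p = 1). The sign of the LPS value in ELS mice alone, 0.11 ± 0.26, turned to -0.11 when library totals were used without TMM scaling.

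Ahrr (chr13:74359237-74440462, minus strand), the repressor, was low and uneven between mice. At P9 it was read in 12 of 12 CTR mice (0.178 to 4.56 CPM, median 1.21) and in 10 of 13 ELS mice (0 to 3.99 CPM, median 0.885). The CTR-PBS mice had 0, 0.0397, 0.0389, 0.213, 0.143, 0.412 and 0 CPM, with 16 counts in all, and the ELS-PBS mice had 1.24, 0.107, 2.53, 2.69, 0.815 and 0 CPM, with 180 counts. So 4 of 6 ELS-PBS mice were above every CTR-PBS mouse, and the other 2 were within the CTR range. The log2 fold change of ELS against CTR after PBS was 3.34 ± 1.3 (SE), given without a test because this comparison led to the choice of the genes.

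After LPS, Ahrr had a count in 3 of 7 CTR mice and 2 of 5 ELS mice, with 3.58 CPM in CTR-LPS mouse 3 of nest 5 and 2.14 CPM in ELS-LPS mouse 3 of nest 17 as the highest values. ELS and CTR did not differ by the test after LPS (log2 fold change -0.22 ± 1.27, adjusted p = 1) or at P9 (-0.51 ± 0.84, adjusted p = 1), and LPS against PBS gave 0.58 ± 0.87 (adjusted p = 0.705). The sign of the latter turned without either of those mice (-0.45 and -0.43). In CTR mice, Ahrr fell from 1.70 ± 1.53 CPM (SD, n = 12) at P9 to 0.121 ± 0.151 CPM (n = 7) at P200 (log2 fold change -3.80 ± 1.25, adjusted p = 0.0111), where 44.1% of all genes were called. In ELS mice the levels were 1.17 ± 1.297 CPM (n = 13) and 1.23 ± 1.17 CPM (n = 6), with a log2 fold change of 0.05 ± 1.03 (adjusted p = 0.973), where 42.2% of all genes were called. The difference between these age effects was not tested, because it contains the comparison that led to the choice of genes. Averaged over conditions the fall was -1.87 ± 0.81 (adjusted p = 0.0440). That call was lost on leaving out any of 9 adult mice 1 at a time (5 CTR-PBS and 4 ELS-PBS mice), with an adjusted p of at most 0.0693. The 6 markers of border-associated macrophages summed to between 470 and 919 CPM at P9 and to between 2.84 and 10.6 CPM in P200 PBS mice. Most of the P9 sum was Mrc1 (711 CPM in both groups), the other 5 had group means of 1.48 to 5.91 CPM at P9, and their part in the age differences of the 5 genes was not tested.

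**Figure D1:**
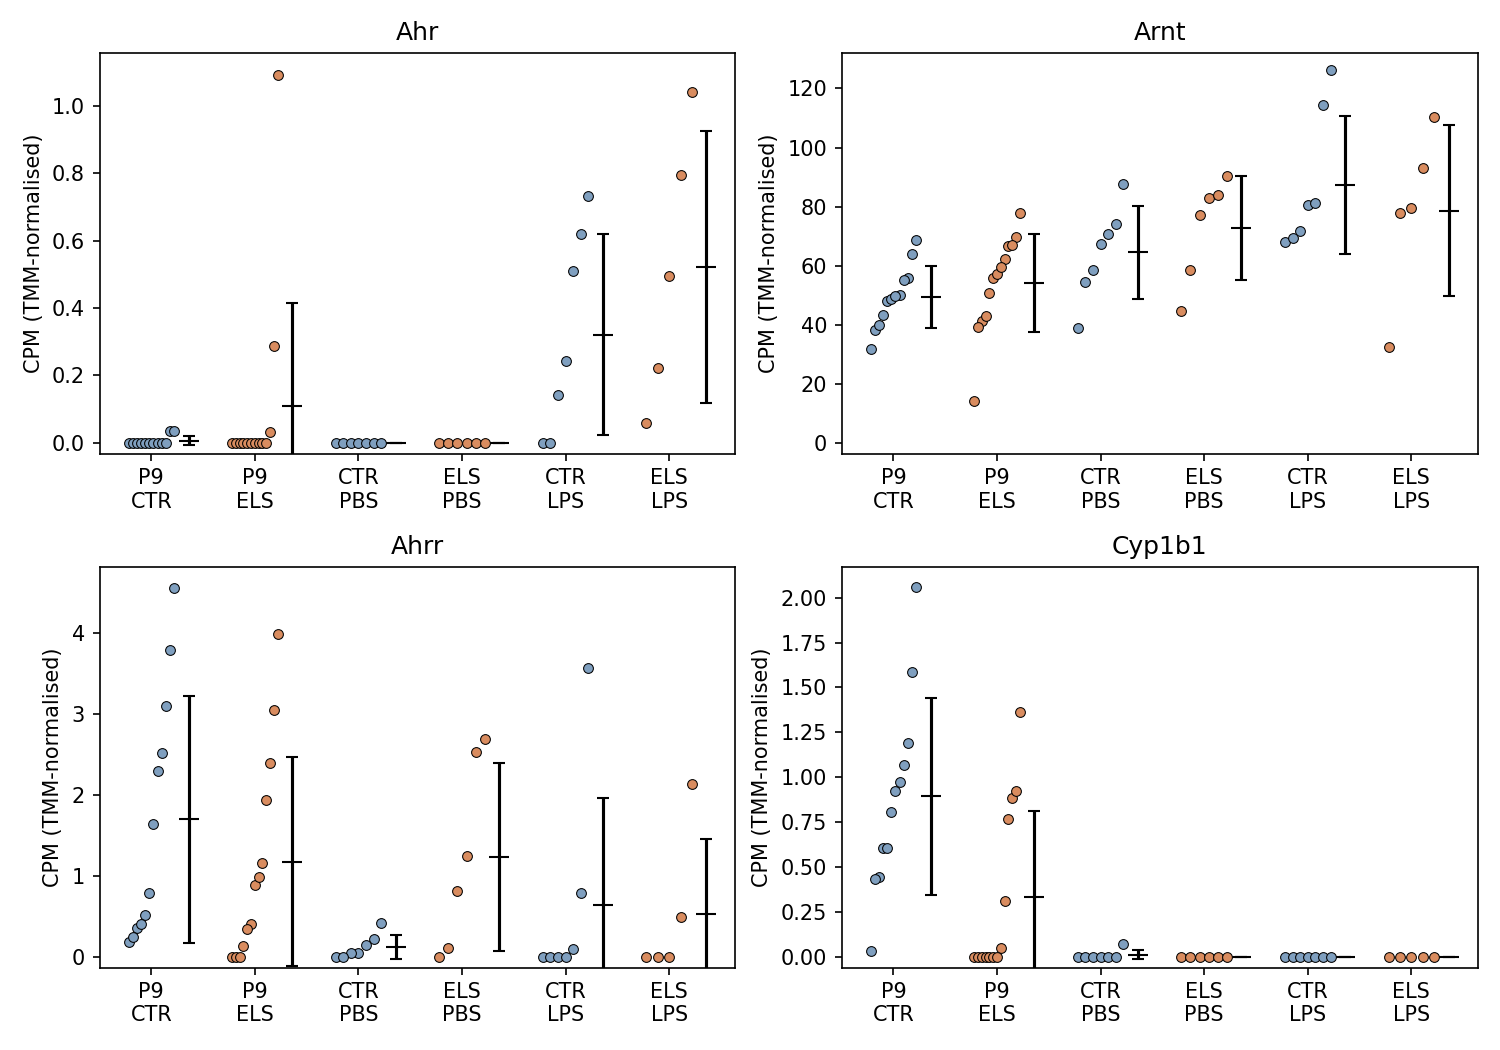
Expression of Ahr, Arnt, Ahrr and Cyp1b1 in CPM in each mouse (points) of the 6 groups, with the group mean (horizontal mark) and SD (bars, cut off just below 0). Ahr is at 0 in all 13 PBS mice and above 0 in 10 of 12 LPS mice, Arnt is expressed in every mouse, and Cyp1b1 is above 0 in 1 adult mouse.

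Tiparp (chr3:65435320-65463365, plus strand), the ADP-ribosyltransferase that restrains the receptor, was expressed in every mouse. After PBS, the CTR mice had 20.4, 12.7, 15.3, 8.72, 11.6, 19.09 and 19.6 CPM, and the ELS mice had 32.3, 24.5, 32.4, 33.3, 24.0 and 51.7 CPM. Every ELS-PBS mouse was above every CTR-PBS mouse, a separation that 0.204% of all genes tested showed in this direction. In the same mice the astrocyte marker Gfap was lower in ELS (0.108 ± 0.169 CPM, n = 6) than in CTR (1.28 ± 1.195 CPM, n = 7, quasi-likelihood test, adjusted p = 0.0466). It was the 1 called of 6 such markers (median log2 fold change -1.76). That call was lost, with 0 genes called lower, without the filter, with edgeR's own filter, with limma and with those groups alone. The same held on leaving out single CTR-PBS mice (mouse 1 of nest 1, mouse 1 of nest 5 or mouse 2 of nest 18). It also held on leaving out single ELS-PBS mice (mouse 1 of nest 2, mouse 1 of nest 4 or mouse 2 of nest 20). Slc1a3, the marker with by far the highest level, was higher in ELS (387 against 356 CPM). The part of astrocytes in the Tiparp values was not tested. The Tiparp means were 15.3 ± 4.51 CPM (SD, n = 7) in CTR and 33.1 ± 10.0 CPM (n = 6) in ELS, a log2 fold change of 1.11 ± 0.25 (SE). These values were the reason for studying Tiparp and are a description. Without CTR-PBS mouse 1 of nest 1, the library with few genes and the highest of its group, the CTR mice lay between 8.72 and 19.6 CPM and the log2 fold change was 1.18.

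Where the choice of genes had not used the values, Tiparp did not differ between ELS and CTR by the test. At P9, before adulthood and without injection, CTR mice lay between 9.26 and 23.4 CPM (median 14.9) and ELS mice between 10.9 and 39.7 CPM (median 16.6). The ranges overlapped almost entirely, and the highest value, 39.7 CPM, came from ELS mouse 2 of nest 19, a library with few genes. The means were 15.6 ± 3.54 CPM (SD, n = 12) and 17.9 ± 7.38 CPM (n = 13), with a log2 fold change of 0.20 ± 0.18 (SE, edgeR's quasi-likelihood test, adjusted p = 0.999) and 0.08 without the libraries with few genes. Of the 4 members tested at P9, 0 were called, and of all genes 0% (0 by DESeq2, 1 by edgeR's likelihood-ratio test, 914 at an unadjusted p under 0.05).

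After LPS, the CTR mice had 65.0, 64.9, 55.8, 55.09, 61.1, 44.3 and 70.0 CPM of Tiparp, and the ELS mice had 49.8, 71.2, 41.8, 80.3 and 168 CPM. The ELS-LPS mice lay on both sides of the CTR-LPS mice, with 3 of 5 above all of them and mouse 2 of nest 11 below all of them. The means were 59.5 ± 8.54 CPM (SD, n = 7) and 82.2 ± 50.4 CPM (n = 5), with a log2 fold change of 0.47 ± 0.26 (SE, quasi-likelihood test, adjusted p = 1, unadjusted p = 0.0813). Without the mouse at 168 CPM, mouse 1 of nest 20, the log2 fold change was 0.03. The highest of the PBS mice, ELS-PBS mouse 2, has the same nest number. An exact permutation test over the 12 mice gave p = 0.432 (two-sided). Of the 4 members that passed the filter, 0 were called in this comparison, and of all genes 0% (2 by DESeq2, 10 by the likelihood-ratio test, 798 at an unadjusted p under 0.05). The ELS effect on Tiparp after LPS and that at P9 differed by 0.27 ± 0.32 on the log2 scale (SE, adjusted p = 1 from the same model).

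LPS raised Tiparp. Over CTR and ELS together it went from 23.5 ± 11.7 CPM (SD, n = 13) after PBS to 68.9 ± 33.2 CPM (n = 12) after LPS, with an averaged log2 fold change of 1.63 ± 0.19 (SE, quasi-likelihood test, adjusted p = 4.65e-10). The average weighs CTR and ELS alike, so it uses the mean of both PBS groups and not the difference between them that led to the choice of Tiparp. That mean still holds the PBS mice of the choice. This comparison called 23.5% of all genes, 12.4% as higher after LPS. TMM scaling gave 2078 genes higher and 1848 lower, and library totals without it 1505 and 3107, with Tiparp called in both. Beside this, the 6 markers of astrocytes summed to between 418 and 613 CPM in LPS mice and to between 299.5 and 503 CPM in PBS mice. Nearly all of that sum was Slc1a3 (group means 356 to 550 CPM in adults), Gfap rose from 0.740 ± 1.05 to 1.88 ± 1.55 CPM (adjusted p = 0.000705), and their part in the Tiparp values was not tested. The highest PBS mouse (51.7 CPM) was above 3 of 12 LPS mice, so the treatments overlapped by that mouse. Within conditions the log2 fold change was 1.95 ± 0.25 in CTR mice, where all 7 LPS mice were above all PBS mice as in 4.92% of all genes, and 1.31 ± 0.27 in ELS mice, where the groups overlapped. These latter values hold the chosen PBS mice and were not tested apart or against each other.

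Between P9 and P200 PBS mice, the log2 fold change of Tiparp was -0.02 ± 0.22 (SE) in CTR mice and 0.88 ± 0.22 in ELS mice. The average, 0.43 ± 0.15, also weighs CTR and ELS alike, but it came from the ELS-PBS mice whose values led to the choice of Tiparp. All 3 values are therefore a description with no test. In the order of group means, CTR-PBS (15.3 CPM), P9-CTR (15.6 CPM), P9-ELS (17.9 CPM), ELS-PBS (33.1 CPM), CTR-LPS (59.5 CPM) and ELS-LPS (82.2 CPM), each group overlapped its neighbour in single mice. P9-ELS and ELS-PBS overlapped only through the library with few genes at 39.7 CPM, and without the libraries with few genes the highest P9-ELS mouse had 20.09 CPM. Antisense transcripts overlap Tiparp exons in the annotation, and since the strand setting of the counting was not given, their reads could not be set apart.

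**Figure D2:**
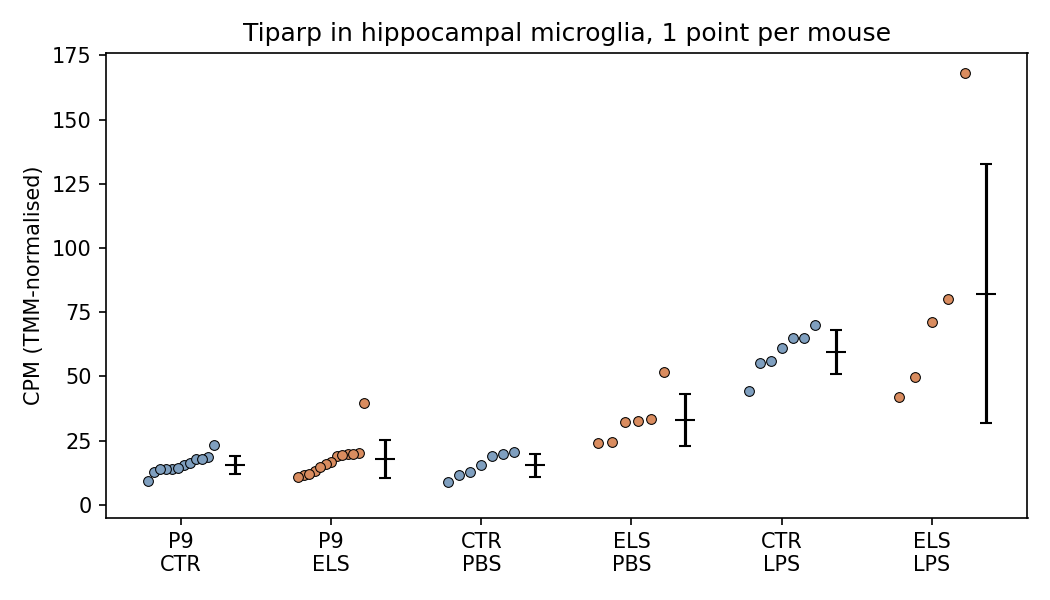
Tiparp in CPM in each mouse (points) of the 6 groups, with the group mean (horizontal mark) and SD (bars). The 6 ELS-PBS mice lie between 24.0 and 51.7 CPM, above all 7 CTR-PBS mice, and the ELS-LPS mice spread from 41.8 to 168 CPM around the CTR-LPS mice.

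Cyp1b1 (chr17:80008966-80022532, minus strand), the xenobiotic enzyme often used as a readout of the receptor, was read at P9 and hardly at all in adults. At P9 it had a count in 12 of 12 CTR mice (0.0304 to 2.06 CPM, median 0.866) and in 6 of 13 ELS mice (0 to 1.36 CPM, median 0). In adults 1 mouse had it, CTR-PBS mouse 2 of nest 18 with 2 counts, and it was at 0 in all 12 LPS mice. Pooled over mice, P9 was 84.7-fold higher than P200 PBS (95% interval 23.2 to 702, from counting error alone). Cyp1b1 passed the filter only through P9 mice, so no test of this difference is given. No fold is given for LPS, since both treatments were at or under the floor of 3 counts.

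The lower Cyp1b1 in P9-ELS mice depended on the test, and the gene passed the filter mainly through P9-CTR mice, where it was higher. The means were 0.894 ± 0.549 CPM (SD, n = 12) in CTR and 0.330 ± 0.479 CPM (n = 13) in ELS, and the quasi-likelihood test gave a log2 fold change of -1.40 ± 0.81 (SE, adjusted p = 0.929, unadjusted p = 0.0905). A two-sided permutation test of log2 CPM over mice gave p = 0.00418, and an exact permutation of nest means (4 ELS and 5 CTR nests) gave p = 0.0159, the smallest this design allows. The number of mice with a count differed with p = 0.00522 in Fisher's exact test, chosen after the values were seen, and with p = 0.0137 without the libraries with few genes (6 of 11 ELS mice). These p-values were not adjusted for the number of genes. Since the gene was kept mainly through the higher group, all p-values of this comparison are a description. The 8 markers of mural cells and fibroblasts, cells known to express Cyp1b1, summed to between 2.66 and 20.8 CPM (median 9.29) in P9-CTR mice and to between 0 and 19.23 CPM (median 3.11) in P9-ELS mice, with no marker at 0 in a whole group. In PBS adults the same sum was between 0 and 1.32 CPM. The part of those cells in the Cyp1b1 values was not tested.

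Per length of exon, Arnt was the most abundant of the 5 transcripts in CTR-PBS mice at 6.90 ± 1.68 CPM per kb (SD, n = 7), against 1.34 ± 0.396 for Tiparp, 0.0128 ± 0.0159 for Ahrr, 0.00135 ± 0.00357 for Cyp1b1 and 0 for Ahr. After LPS, Tiparp came near Arnt, with 5.21 ± 0.748 CPM per kb (n = 7) in CTR mice and 7.21 ± 4.42 CPM per kb (n = 5) in ELS mice, where Arnt had 9.35 ± 2.5 and 8.41 ± 3.09 CPM per kb. Ahr was at 0.0520 ± 0.0484 CPM per kb in CTR-LPS mice and 0.0845 ± 0.0653 CPM per kb in ELS-LPS mice.

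**Figure D3:**
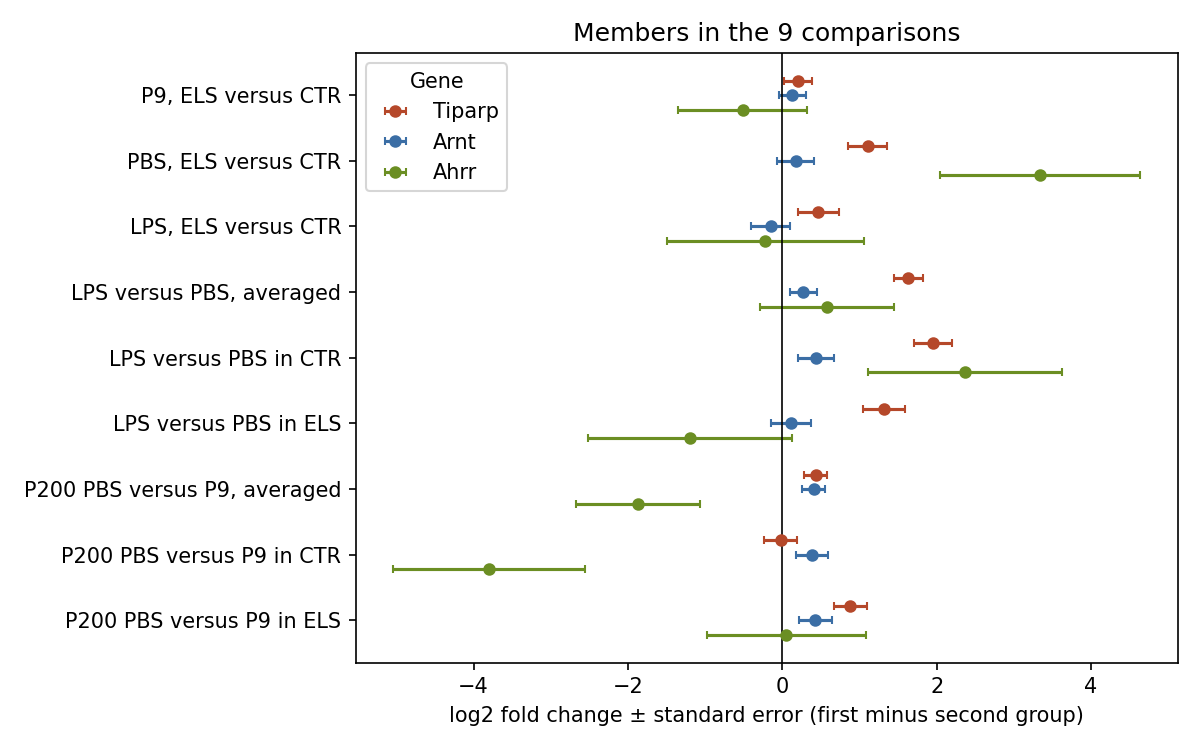
Log2 fold changes (points) and standard errors (bars) of Tiparp, Arnt and Ahrr in the 9 comparisons, fitted in 1 model of the 6 groups. Tiparp is furthest from 0 in the comparisons of LPS with PBS (1.63 when averaged), and the bars of Ahrr are wider than those of the others throughout.

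No tested relation of Tiparp within groups passed its test. The relation with Ahr, which did not pass the filter, was not tested. Over the 25 adult mice, with group means removed, Pearson's r of log2 CPM was 0.14 with Arnt, -0.24 with Ahrr and -0.03 with the mean of 18 immediate early genes (Spearman's rho 0.00, -0.17 and 0.12). The fourth relation, with Cyp1b1, rested on the 1 adult mouse with a count and is not given. Permutation of mice within groups gave unadjusted p-values from 0.309 to 0.886 for Pearson's r and from 0.442 to 0.991 for rho, with Benjamini-Hochberg adjusted p of at least 0.832 over the 4 relations. Without the 2 mice farthest from the median, r was -0.29 with Arnt, -0.33 with Ahrr and 0.21 with the immediate early genes.

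The genes whose log2 CPM was most like that of Tiparp over the 25 adult mice, among 11053 genes with a mean log2 CPM of at least 1, were Ppp1r3d (r = 0.907), 4931440P22Rik (0.905), Dusp1 (0.877), Lmnb1 (0.868) and Runx1 (0.867). Ppp1r3d, a subunit that targets a phosphatase to glycogen, had group means of 8.83 CPM in CTR-PBS, 22.3 in ELS-PBS, 103 in CTR-LPS and 124 in ELS-LPS mice. Dusp1, a phosphatase that switches off MAP kinases, had 3.37, 9.91, 491 and 971 CPM in the same order. Runx1, a transcription factor of blood and myeloid cells, had 103, 132, 464 and 477 CPM. The mice share treatments, which sets much of these values. Within the 12 LPS mice r was between 0.589 and 0.738, and within the 13 PBS mice, which hold the ELS and CTR difference that led to the choice of Tiparp, between 0.570 and 0.794. For Ahr the nearest genes were Nfkbie (0.872), Il4i1 (0.871), Tmbim1 (0.864), Nfkbib (0.847) and Ccrl2 (0.844). Nfkbie and Nfkbib encode inhibitors of NF-κB, and Il4i1 an amino acid oxidase whose products include receptor ligands. Within the 12 LPS mice these r lay between 0.591 and 0.862.

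The wider pathway was described with lists of genes by role, counted at an adjusted p under 0.05 of the quasi-likelihood test, to be read against the 12.4% of all genes higher after LPS and the 1848 of 16696 lower. Without the libraries with few genes, more of all genes were called, 2743 higher and 2682 lower of 16581. The counts higher and lower then became 2 and 2 for targets, 4 and 0 for tryptophan enzymes, 3 and 5 for coregulators and 1 and 1 for bHLH-PAS partners. Of the other target genes of the receptor, 6 of 14 passed the filter, and after LPS 2 were higher and 1 lower (median log2 fold change -0.22, against -0.01 over all genes). Socs2, a suppressor of cytokine signalling, rose from 0.515 ± 0.685 CPM (SD, n = 13) to 65.9 ± 30.4 CPM (n = 12), a log2 fold change of 7.22 ± 0.51 (SE, adjusted p = 7.52e-17). Nfe2l2, the master regulator of antioxidant genes, rose from 283 ± 28.2 to 462 ± 105 CPM (adjusted p = 3.53e-07). Ugt1a6a, a glucuronidating enzyme whose locus shares exons with its neighbours so that counting is uncertain, fell from 2.85 ± 1.37 to 0.725 ± 0.495 CPM (adjusted p = 0.00163). The classical targets Cyp1a1, Cyp1a2 and Aldh3a1 were at 0 in all 12 LPS mice, and Cyp1a1 had a count in 5 P9-CTR and 4 P9-ELS mice. After PBS these 3 genes were also near 0, with group means of at most 0.0157 CPM. Without TMM scaling the median of all genes moved to -0.18, and the medians of the lists that follow moved with it.

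Among enzymes and transporters that supply or consume tryptophan-derived ligands, 3 of 10 tested genes were higher after LPS and 0 lower (median 0.07). Il4i1 rose from 10.1 ± 2.75 to 76.6 ± 52.3 CPM (log2 fold change 2.95 ± 0.30, adjusted p = 2.43e-11). The transporter subunits Slc7a5 and Slc3a2, which carry tryptophan and kynurenine across the membrane, had log2 fold changes of 0.74 ± 0.21 (adjusted p = 0.00628) and 0.51 ± 0.08 (adjusted p = 3.99e-07). Ido1 and Ido2, which start the kynurenine pathway, were at 0 in every LPS mouse and near 0 after PBS (group means of at most 0.0067 CPM).

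Of the coactivators and corepressors, 2 of 13 were higher and 5 lower after LPS (median -0.17). Relb, an NF-κB subunit that can pair with the receptor, rose from 7.27 ± 3.40 to 76.6 ± 47.2 CPM (log2 fold change 3.43 ± 0.36, adjusted p = 5.34e-11), and Rela, another NF-κB subunit, from 91.8 ± 26.6 to 138 ± 29.0 CPM (adjusted p = 0.0149). Without TMM scaling 1 gene of this list was higher and 6 were lower. Nrip1, a corepressor, fell by 0.66 ± 0.14 (adjusted p = 0.000187). Of the 4 chaperone partners in the cytosol, 0 were called after LPS (median 0.03).

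Of the 7 tested bHLH-PAS partners, relatives of the receptor that share its dimerisation fold, Hif3a was higher after LPS (0.574 ± 1.67 to 5.05 ± 2.58 CPM, adjusted p = 0.000282) and 0 were lower. Hif3a was also called in CTR mice alone (same test, adjusted p = 0.000624), while in ELS mice alone 0 of the 7 were called. The ELS means of Hif3a were 1.08 CPM after PBS, with a count in 2 mice, and 4.45 CPM after LPS. Among 20 PARP family members and ADP-ribose removing enzymes, relatives of Tiparp by enzyme activity, Parp14 was higher (16.8 ± 3.93 to 33.9 ± 13.0 CPM, log2 fold change 1.00 ± 0.20, adjusted p = 8.13e-05) and 0 were lower. Without the libraries with few genes 3 were higher and 5 lower, where 2743 and 2682 of all 16581 genes were. Of 18 tested immediate early genes, 16 were higher after LPS and 0 lower (median 3.29), with Fos at 1.34 ± 1.49 CPM after PBS and 155 ± 47.7 CPM after LPS. The 16 include Fosl1, which passed the filter only through LPS mice, so its call is a description. Its group means were at most 0.0547 CPM at P9 and after PBS, and 0.726 (CTR) and 1.41 CPM (ELS) after LPS.

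**Figure D4:**
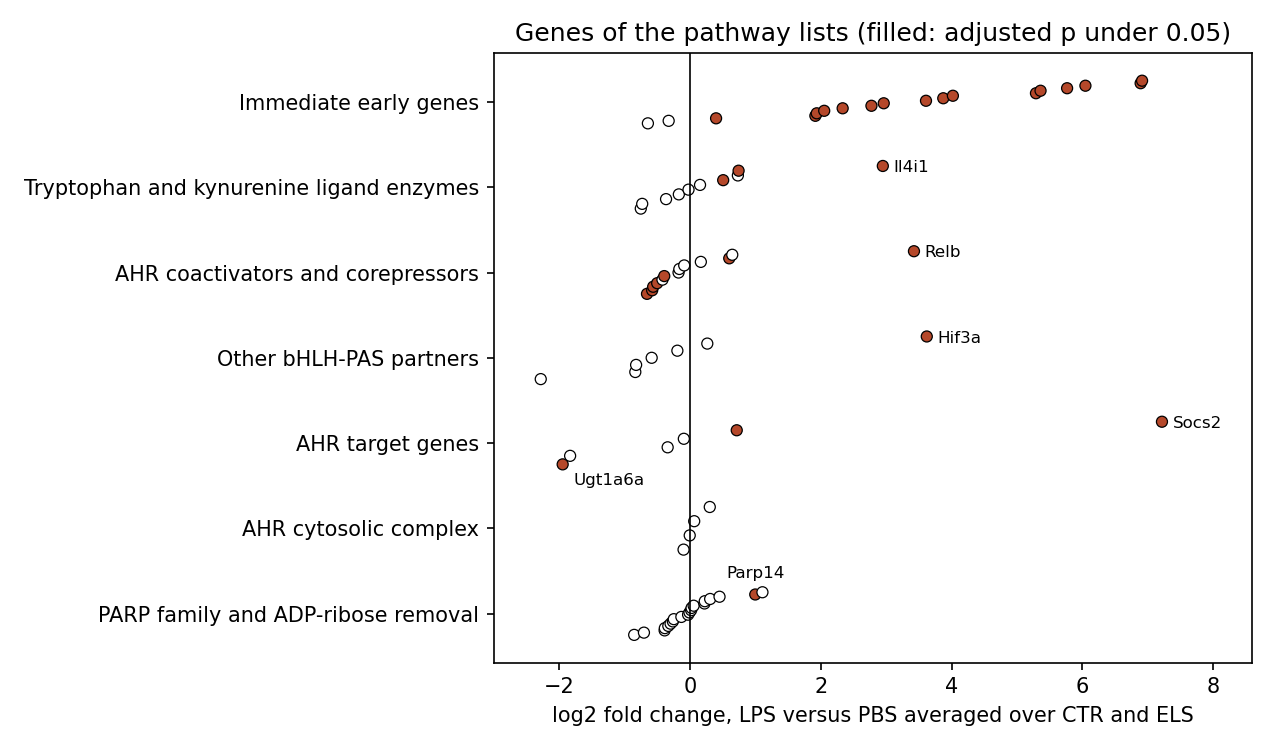
Log2 fold change of LPS against PBS, averaged over CTR and ELS, for each tested gene (points) of 7 lists on the vertical axis; filled points had an adjusted p under 0.05. The immediate early genes lie mostly to the right of 0 (16 of 18 called higher, among them Fosl1, kept by the filter only through LPS mice). Socs2 (7.22), Hif3a (3.62), Relb (3.43) and Il4i1 (2.95) lie furthest to the right in their lists.

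ELS called 0 genes of these 7 lists at P9, after PBS and after LPS, where 0%, 0.168% and 0% of all genes were called. The PBS share, 28 genes, was 215 by the likelihood-ratio test, 177 by DESeq2 and 0 by limma or with those groups alone. It was 1 without CTR-PBS mouse 1 of nest 1, and also 1 without CTR-PBS mouse 1 of nest 5. Without ELS-PBS mouse 1 of nest 4 or ELS-PBS mouse 2 of nest 20 it was again 1. It was 83 without CTR-PBS mouse 1 of nest 15, and 32 without all libraries with few genes. With age, 56.2% of all genes were called, and the lists moved in both directions. Haao, which makes the precursor of quinolinic acid, was higher in P200 PBS mice (8.88 ± 2.56 CPM, n = 13) than at P9 (1.77 ± 1.81 CPM, n = 25; adjusted p = 5.85e-08), and Il4i1 was lower (10.1 ± 2.75 against 20.7 ± 6.06 CPM, adjusted p = 0.000457). Arnt2, the neuronal relative of Arnt, fell from 2.17 ± 1.42 CPM at P9 to 0.125 ± 0.251 CPM in P200 PBS mice. It passed the filter only through P9 mice, so no test of this fall is given. Beside it, the sum of 6 neuronal markers was between 30.7 and 127 CPM at P9. In P200 PBS mice that sum was between 2.54 and 11.9 CPM. Parp1, the main DNA damage-responsive PARP, fell from 125 ± 30.2 to 61.7 ± 8.56 CPM (adjusted p = 1.98e-10). Socs2 fell from 2.66 ± 1.68 to 0.515 ± 0.685 CPM (adjusted p = 6.97e-07). The part of the other cell types in the age differences was not tested.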

How the data were processed

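Sorted microglia of 50 mice were sequenced as 1 library each. The authors trimmed reads with cutadapt 2.10, aligned them to GRCm39 (STAR) and made gene tables with HTSeq 0.11.0. The deposited values are raw counts per gene, with no normalization. The annotation release and strand setting are not given in the sources used here. Groups came from the labels. Whether mice of a group were litter mates is not stated beyond the nest number. The study assigned whole litters to ELS or CTR at P2, and at each age no nest number holds both conditions. Tests over mice therefore treat nest mates as replicates, and their p-values measure the spread between these mice.

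Counts were scaled by TMM and tested with the quasi-likelihood test of edgeR 4.0.16 (R 4.3.3) in 1 model of 6 group means, with Benjamini-Hochberg adjustment over the 16696 genes kept. Calls had an adjusted p under 0.05. Log2 CPM used a prior count of 2. In a mouse, 3 counts were worth 0.0786 to 0.538 CPM, and intervals and floors cover counting error only. The test was checked on simulated data. Ahr was tested without the filter and with Fisher's exact test, the latter added after seeing the data. Permutation tests (scipy 1.17.1) were exact for groups under 10 mice and for nest means, and used 100000 resamples otherwise.

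The genes and lists were chosen with earlier results of these data known. Named were the 5 members, up to 3 list genes with the largest called changes per comparison, and the 5 genes most correlated with Tiparp and with Ahr, and further list genes after their values were seen. Alternatives were DESeq2 1.42.0, limma 3.58.1 with nest as a random effect, other scalings, filters and tests, and leaving out mice. One gene of the microglia marker list is not reported here.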

Additional observations from a re-analysis of the deposited data

Results flagged for a closer look

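Arnt in ELS-LPS mouse 2 of nest 11 (32.6 CPM) lay far below the other 4 mice of its group, which had 77.9 to 110 CPM. Cyp1b1 in CTR-PBS mouse 2 of nest 18 (0.0683 CPM, 2 counts) was the only adult value above 0. Both were picked out because the gap to the nearest mouse was large against the range of the group, a rule that chance meets in about 1 in 20 of the 15 groups tested. All other mice of the Cyp1b1 group were at 0, so any single value above 0 meets the rule there. That rate does not apply to it. No explanation was tested.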

How the results depend on the processing

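Of 1146 values under alternatives, 1101 kept their direction and their side of the threshold or stayed within the allowed range. The rise of Tiparp after LPS was called under all 37 alternatives run (log2 fold change 1.42 to 1.72), and its ELS effects at P9 and after LPS were called under none. The age difference of Tiparp averaged over conditions ranged from 0.34 to 0.48 when adult mice were left out 1 at a time. That of Ahrr ranged from -2.28 to -1.74, and its call was lost with no filter on low counts (-1.86) and with edgeR's own filter (-1.81), and the cause was not tested.

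Directions turned only in values that did not pass the test. For Ahrr, ELS against CTR after LPS became 0.52 with limma and 0.0806 as a difference of mean log2 CPM, and ranged from -2.25 to 1.85 without single mice. LPS against PBS in Ahrr became -0.82 with limma and ranged from -0.45 to 0.99 without single mice, and the age difference of Ahrr in ELS mice became -0.14 without the libraries with few genes and ranged from -0.34 to 0.31 without single mice. For Arnt, LPS against PBS in ELS mice became -0.11 without TMM scaling and ranged from -0.0440 to 0.31, and ELS against CTR after LPS ranged from -0.31 to 0.0448. The correlation of Tiparp with Arnt became -0.29 without 2 mice and -0.13 in PBS mice alone, and that with immediate early genes became 0.21 without 2 mice.

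Nest numbers recur between PBS and LPS mice. With nest as a replicate block, the LPS effect on Tiparp was 1.61 (1.64 in the same mice without the block), that on Ahrr -0.30 (0.59 without), and 3742 against 4135 genes were called. Deviations of mice from the same nest correlated by -0.0411 to 0.0841 over 10 nests, so the numbers were not taken to pair the samples. The depth limits Ahr, Ahrr and Cyp1b1, whose counts are near the floor of 3 in many mice.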
